A study of Homo sapiens with 9 samples.

Results

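The FGF/ERK feedback genes are genes that cells switch on when fibroblast growth factor activates the ERK kinases and whose products mostly act back on the same pathway. The 10 genes described here were SPRY1, SPRY2, SPRY4, SPRED1, SPRED2, DUSP4, DUSP6, ETV1, ETV4 and ETV5. A probe set was taken when its annotated gene symbol was 1 of these names, which gave 1 probe set for each gene, or 10 of the 33297 probe sets in the table and of the 29096 that were not controls. The study used H9, a human embryonic stem cell line, and asked which genes respond when the transcription factor TCF7L1 is depleted by siRNA. 3 samples had no siRNA and are called untreated in the labels, 3 had a non-silencing siRNA, and 3 had siRNA against TCF7L1, all taken at day 3 and each hybridised to 1 whole-transcript Affymetrix array. All groups were the same line, and the sources used here give no sequence, dose or delivery for the siRNAs. The labels do not call the replicates separate cultures, so the p-values measure the spread between these samples, which may be technical.

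Fibroblast growth factors bind receptor tyrosine kinases, which signal through adaptor proteins, Ras and Raf to the kinases MEK and ERK. Active ERK leads to transcription of its own inhibitors, among them Sprouty and Spred proteins and dual-specificity phosphatases, and of the PEA3 group of ETS transcription factors. Human embryonic stem cells are grown with FGF2, which helps to hold them in the undifferentiated state. TCF7L1 is a DNA-binding partner of beta-catenin that is known mainly as a repressor in pluripotent cells.

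The TCF7L1 probe set checked the labels, with a mean signal of 362 ± 23.2 (SD, n = 3) under its siRNA, 21.6% of the 1679 ± 46.6 (n = 3) under the non-silencing siRNA and 21.8% of the 1661 ± 184 (n = 3) without siRNA. These are log2 differences of −2.17 (SE 0.10) and −2.14 (SE 0.10), and both passed the threshold. Signals are deposited PLIER intensities on a linear scale, and tests were made on log2(signal + 16) with limma. Array medians lay between 109 and 117, but the spread of the arrays, taken as the interquartile range of their log2 values, ran from 2.78 to 3.17. It was narrowest for TCF7L1 siRNA replicate 2 (2.78) and non-silencing siRNA replicate 3 (2.79). All 14 markers of pluripotent cells, among them POU5F1, SOX2 and LIN28A, were bright enough to test. Their summed signal was 34612 to 35576 in untreated samples, 34113 to 35145 under the non-silencing siRNA and 33868 to 36391 in the knockdown. Between the siRNAs 9 of the 14 lay above 0 and 5 below, with a median log2 difference of 0.024. For 2 of them all knockdown arrays lay above all non-silencing arrays (1.88% of all tested probe sets), and for 2 below (3.12%).

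The 10 probe sets combined 26 to 41 probes each, and each is annotated to a span of its gene on build 37 of the human genome. SPRY1 lay at chr4:124317956-124324910 on the plus strand, SPRY2 at chr13:80910111-80915917, SPRY4 at chr5:141690005-141704566 and SPRED2 at chr2:65537985-65659311 on the minus strand, and SPRED1 at chr15:38544516-38646241 on the plus strand. DUSP6 lay at chr12:89741837-89746298, ETV1 at chr7:13930854-14029316, ETV4 at chr17:41605212-41623704 and ETV5 at chr3:185764110-185826877, all on the minus strand.

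Promoter sequence from RefSeq (GRCh38.p14) was matched to 7 of the 10 genes, with 16 annotated starts between them, and not to DUSP4, ETV4 or ETV5. The 250 bases before the outermost start are printed 5′ to 3′ on the gene's own strand for SPRY2, SPRY4 and ETV1, whose knockdown arrays stood apart from the other 6 arrays, and for DUSP6, a phosphatase gene widely used as a readout of ERK activity. Capitals mark the core of the ETS motif, GGAA on either strand (TTCC on the printed one), and the letters CTTTGWW of TCF/LEF factors, where W is A or T, on either strand. The windows are chr13:80341127-80341376 for SPRY2, chr5:142324248-142324497 for SPRY4, chr12:89352502-89352751 for DUSP6 and chr7:13991426-13991675 for ETV1, all on the minus strand.
SPRY2: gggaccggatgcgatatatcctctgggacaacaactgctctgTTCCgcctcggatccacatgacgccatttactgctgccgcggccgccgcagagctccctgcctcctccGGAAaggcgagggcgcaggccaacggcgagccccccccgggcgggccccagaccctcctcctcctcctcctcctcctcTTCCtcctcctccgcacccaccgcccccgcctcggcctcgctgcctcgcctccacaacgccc
SPRY4: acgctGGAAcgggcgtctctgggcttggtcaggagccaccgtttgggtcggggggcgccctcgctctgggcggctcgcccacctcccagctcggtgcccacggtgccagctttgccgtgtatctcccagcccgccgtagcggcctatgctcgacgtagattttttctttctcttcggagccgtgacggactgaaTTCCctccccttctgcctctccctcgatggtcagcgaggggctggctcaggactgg
DUSP6: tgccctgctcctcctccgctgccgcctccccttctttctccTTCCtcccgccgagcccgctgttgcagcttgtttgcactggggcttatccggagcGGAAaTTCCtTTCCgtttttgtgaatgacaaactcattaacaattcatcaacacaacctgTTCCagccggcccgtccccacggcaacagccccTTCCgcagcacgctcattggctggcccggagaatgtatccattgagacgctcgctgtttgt
ETV1: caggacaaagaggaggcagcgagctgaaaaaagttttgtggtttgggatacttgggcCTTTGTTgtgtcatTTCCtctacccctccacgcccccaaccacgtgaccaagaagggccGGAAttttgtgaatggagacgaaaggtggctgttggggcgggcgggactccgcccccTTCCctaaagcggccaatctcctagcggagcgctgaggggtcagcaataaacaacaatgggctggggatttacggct
The window held 6 ETS cores in DUSP6, 3 in SPRY2, 3 in ETV1 and 2 in SPRY4. All 16 windows of the 7 genes held the core, which is short and stood in 92.7% of 35116 windows of the same length over all genes. A longer ETS form that contains the core, CCGGAAG, stood in 8.52% of all windows and in 1 of the 16, before the second start of SPRY1. The TCF/LEF letters stood in 12.0% of all windows and in 3 of the 16. These were the printed ETV1 window, 193 bases before the start, and the windows before 2 inner starts of SPRY2, not the printed one. A match describes letters and not a bound site.

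With TCF7L1 siRNA, the group means of the Sprouty genes, SPRED1, DUSP6, ETV4 and ETV5 lay lower than in both controls, and that of ETV1 slightly higher. None of these differences passed the threshold. Against the non-silencing siRNA, 8 of the 10 genes lay below 0 with a median log2 difference of −0.15, against −0.0050 over all 22784 tested probe sets. limma called 0 of the 10 at an adjusted p under 0.05, where it called 0.0263% of all tested probe sets, and the adjusted p was 1 for each of them. At an unadjusted p under 0.05 it gave 3 genes, SPRY2, SPRY4 and ETV5, all lower, against 1.35% of all probe sets in that direction. The 3 knockdown arrays lay below the 3 non-silencing arrays without overlap for SPRY2 and SPRY4 (3.12% of all probe sets) and above them for ETV1 (1.88%). Without non-silencing replicate 3 the genes lower without overlap numbered 6, where 9.84% of all probe sets were, and without TCF7L1 siRNA replicate 1 they numbered 5, where 10.1% of all were. Without the 2 arrays of narrowest spread they numbered 6 (11.8% of all). Fewer arrays make such a separation easier to reach.

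Against the samples without siRNA, 7 of the 10 genes lay below 0, with a median of −0.23 against −0.017 over all tested probe sets. Again limma called 0 of the 10, where 0.0527% of all probe sets passed, with adjusted p from 0.417 to 0.995. 5 genes, SPRY1, SPRY2, SPRY4, DUSP6 and ETV5, had an unadjusted p under 0.05 and lay lower (4.69% of all). SPRY1, SPRY2, SPRY4, DUSP6, ETV4 and ETV5 lay lower without overlap (7.93% of all) and ETV1 higher without overlap (6.43%). After quantile normalization the genes lower without overlap were 3 (7.26% of all), and after median centring ETV1 overlapped (6.64% of all were higher without overlap). Both comparisons use the same 3 knockdown arrays, so they are not independent of each other. All 3 knockdown arrays lay below all 6 others for SPRY2 and SPRY4 (1.37% of all probe sets) and above all 6 for ETV1 (0.812%). In whole-culture RNA, fewer cells of a type and less RNA per cell cannot be told apart.

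**Figure D1:**
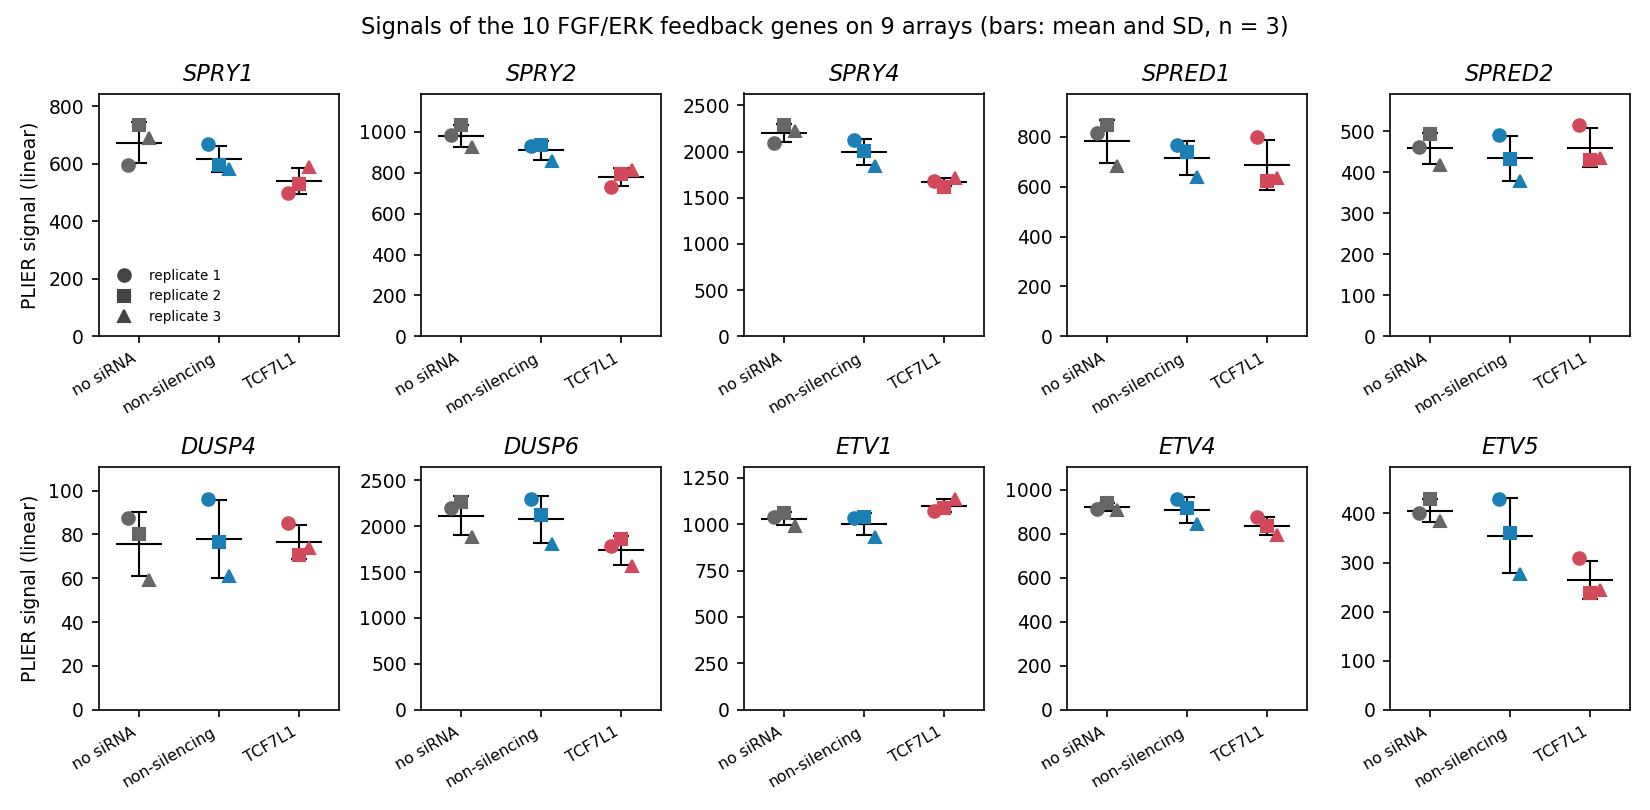
Signals of the 10 genes (y axis, PLIER signal on a linear scale from 0, a separate axis per gene) in the 3 groups (x axis), with points for single arrays by replicate number and bars for the mean and SD of 3 arrays. The knockdown arrays of SPRY4, at 1621 to 1711, lay below every control array, while those of SPRED2 and DUSP4 lay among the controls.

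The Sprouty proteins block Ras activation downstream of growth factor receptors. SPRY4 had signals of 2096, 2286 and 2218 in the untreated samples, 2125, 2006 and 1845 under the non-silencing siRNA, and 1682, 1621 and 1711 in the knockdown. All 3 knockdown arrays lay below the lowest control, and the control groups overlapped. Its mean under TCF7L1 siRNA was 83.9% of that under the non-silencing siRNA, a log2 difference of −0.25 (SE 0.090, 95% interval −0.45 to −0.051) with an unadjusted p of 0.0181 and an adjusted p of 1 in limma. Against no siRNA it was 76.0%, a difference of −0.39 (SE 0.090, interval −0.59 to −0.20), unadjusted p = 0.00112 and adjusted p = 0.417. That unadjusted p was the smallest among the 10 genes. With a variance prior that follows the mean signal its adjusted p came to 0.0501, the lowest of any of the 10 genes under any alternative.

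SPRY2, which also acts on receptor turnover, had signals of 983, 1033 and 927 in the untreated samples, 933, 937 and 858 under the non-silencing siRNA, and 729, 795 and 814 in the knockdown. As for SPRY4, every knockdown array lay below every control array. The log2 difference was −0.22 (SE 0.091, interval −0.42 to −0.019) against the non-silencing siRNA, with limma's unadjusted p = 0.0346 and adjusted p = 1. Against no siRNA it was −0.33 (SE 0.091, interval −0.53 to −0.13), with limma's unadjusted p = 0.00426 and adjusted p = 0.552. For SPRY2 and SPRY4 alike, an exact two-sided permutation test of 3 arrays against 3 gave p = 0.1, the smallest that this design allows. Any gene without overlap between the groups compared gives this value, ETV1 among them, so it adds nothing to the separation.

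SPRY1, the Sprouty gene known from mice for restraining GDNF signalling in the developing kidney, had signals of 595, 734 and 690.3 in the untreated samples, 667, 596 and 583 under the non-silencing siRNA, and 499, 529 and 588 in the knockdown. The knockdown arrays lay below all 3 arrays without siRNA, but the highest of them, replicate 3, lay above the lowest non-silencing array. Its difference was −0.19 (SE 0.11, interval −0.43 to 0.051) against the non-silencing siRNA and −0.31 (SE 0.11, interval −0.55 to −0.072) against no siRNA. limma's adjusted p was 1 and 0.651.

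SPRED1 and SPRED2 are membrane-bound relatives of the Sprouty proteins that bring neurofibromin to Ras. SPRED1 had signals of 815, 847 and 684 in the untreated samples, 766, 738 and 637 under the non-silencing siRNA, and 801, 624 and 635 in the knockdown. SPRED2 had 463, 494 and 419, then 490.5, 434 and 379.7, then 515, 431 and 435 in the same order. All 3 groups overlapped for both genes, and the highest knockdown array of each was replicate 1. The difference against the non-silencing siRNA was −0.061 (SE 0.13, interval −0.34 to 0.22) for SPRED1 and 0.083 (SE 0.12, interval −0.18 to 0.34) for SPRED2. Against no siRNA it was −0.19 (SE 0.13, interval −0.47 to 0.094) for SPRED1 and 0.0028 (SE 0.12, interval −0.26 to 0.26) for SPRED2. This SPRED1 value was −0.30 without TCF7L1 siRNA replicate 1, −0.12 without replicate 2 and −0.074 with array spread as a covariate. Without TCF7L1 siRNA replicate 2 the SPRED1 value against the non-silencing siRNA turned to 0.0022, and without non-silencing replicate 3 that of SPRED2 turned to −0.0077.

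The dual-specificity phosphatases remove the activating phosphates from ERK, DUSP6 in the cytoplasm and DUSP4 in the nucleus. DUSP6 had signals of 2202, 2267 and 1877 in the untreated samples, 2299.6, 2119 and 1802 under the non-silencing siRNA, and 1784, 1861 and 1561 in the knockdown. The knockdown arrays lay below all 3 arrays without siRNA, by a small margin at untreated replicate 3, and overlapped the non-silencing arrays. The difference was −0.25 (SE 0.12, interval −0.52 to 0.015) against the non-silencing siRNA and −0.28 (SE 0.12, interval −0.55 to −0.016) against no siRNA, with adjusted p = 1 and 0.662 in limma. Without the 2 arrays of narrowest spread the first of these was −0.40.

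DUSP4, on chromosome 8, lay below the median signal of every array, at 87.3, 80.2 and 59.1 in the untreated samples, 96.3, 76.5 and 61.1 under the non-silencing siRNA, and 85.3, 70.4 and 74.0 in the knockdown. The groups overlapped throughout. Its difference was −0.0078 (SE 0.15, interval −0.35 to 0.33) against the non-silencing siRNA and 0.026 (SE 0.15, interval −0.32 to 0.37) against no siRNA, and the added 16 shrinks differences at such signals. Its sign against the non-silencing siRNA turned in 5 of 19 alternatives, with values from 0.0037 to 0.13. Some of the 19 cannot change the difference.

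ETV1, ETV4 and ETV5 are the PEA3 group of ETS factors, which carry FGF signals to target genes. ETV5 had signals of 402, 430.1 and 384 in the untreated samples, 429, 360.3 and 276 under the non-silencing siRNA, and 309, 239 and 245 in the knockdown. The knockdown arrays lay below all 3 arrays without siRNA, but knockdown replicate 1 lay above non-silencing replicate 3. Its mean was 74.4% of that under the non-silencing siRNA, a difference of −0.39 (SE 0.15, interval −0.73 to −0.058) with limma's unadjusted p = 0.0254 and adjusted p = 1. Against no siRNA it was 65.2%, a difference of −0.60 (SE 0.15, interval −0.93 to −0.26), with limma's unadjusted p = 0.00239 and adjusted p = 0.478. In both comparisons the difference was the largest in size among the 10 genes, and the first was −0.25 without non-silencing replicate 1, whose signal was the group's highest.

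ETV4 had signals of 913, 939 and 909 in the untreated samples, 959, 915 and 843 under the non-silencing siRNA, and 875, 836 and 795 in the knockdown. The knockdown arrays lay below those without siRNA, while knockdown replicate 1 lay above non-silencing replicate 3. Its difference was −0.11 (SE 0.088, interval −0.31 to 0.081) against the non-silencing siRNA and −0.14 (SE 0.088, interval −0.33 to 0.056) against no siRNA. The first was −0.072 without non-silencing replicate 1, and the second −0.081 after quantile normalization.

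ETV1 ran the other way, with signals of 1039, 1058 and 992 in the untreated samples, 1034, 1039 and 933 under the non-silencing siRNA, and 1072, 1089 and 1137 in the knockdown. All 3 knockdown arrays lay above all 6 controls, although the lowest of them exceeded the highest control by little. The difference was 0.13 (SE 0.087, interval −0.058 to 0.32) against the non-silencing siRNA and 0.093 (SE 0.087, interval −0.098 to 0.28) against no siRNA, with adjusted p = 1 and 0.739 in limma. The first was 0.083 without non-silencing replicate 3, and the second 0.14 after quantile normalization. No test of ETV1 against ETV4 or ETV5 was made.

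**Figure D2:**
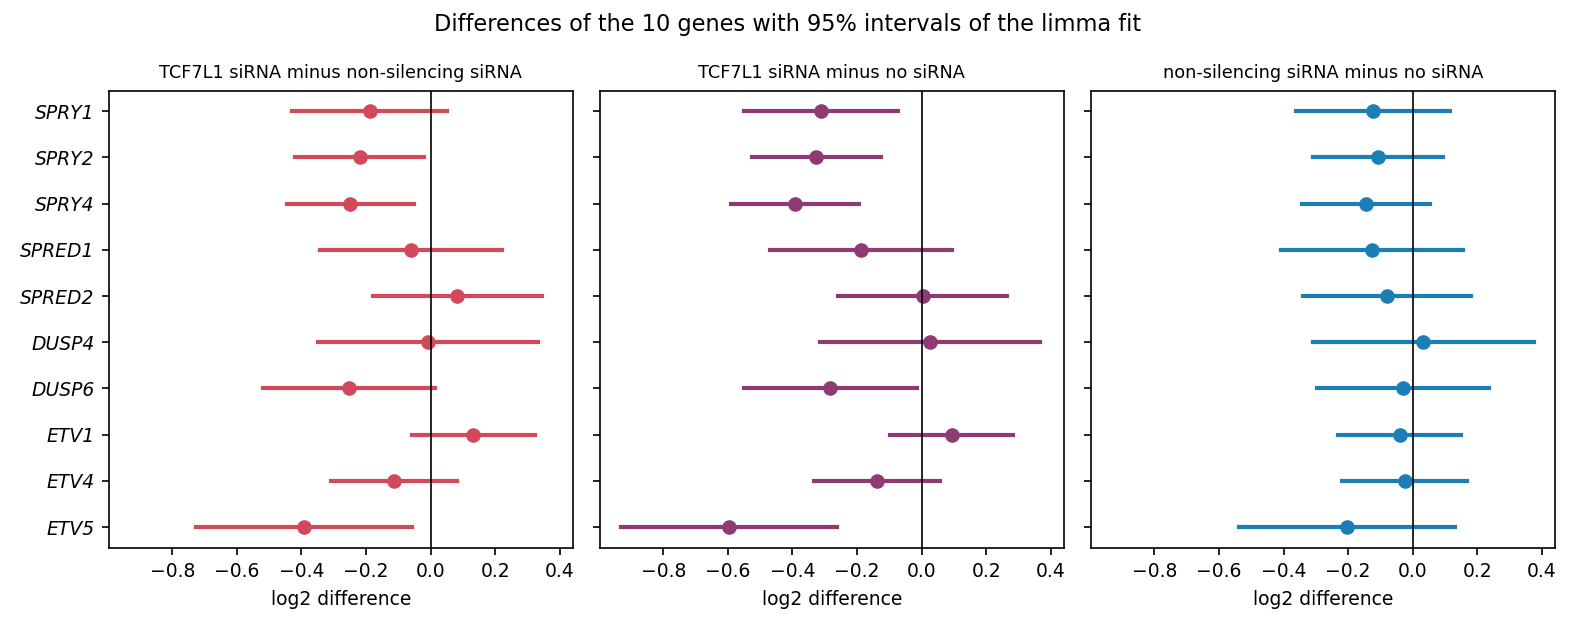
Log2 differences (x axis) of the 10 genes (y axis) in the 3 comparisons, with points for limma's estimate and lines for its 95% interval. Against the non-silencing siRNA the intervals of SPRY2, SPRY4 and ETV5 end below 0, and in the comparison of the controls every interval includes 0.

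The controls were compared in the same way, to show what the non-silencing siRNA itself went with. 9 of the 10 genes lay below 0 in the non-silencing samples relative to no siRNA, from −0.20 for ETV5 to −0.025 for ETV4, with DUSP4 at 0.033. Their median was −0.094, against −0.012 over all tested probe sets. limma called 0 of the 10 and 0% of all 22784 probe sets, 0 of the 10 had an unadjusted p under 0.05 (2.41% of all), and no gene was without overlap (6.86% of all). Lower without overlap were 3 genes without untreated replicate 3 (12.5% of all), 2 without untreated replicate 1 (8.93%) and 2 without non-silencing replicate 1 (21.8%). SPRY4 had a mean of 1992 ± 141 (SD, n = 3) against 2200.1 ± 96.0 (n = 3), a difference of −0.14 (interval −0.34 to 0.053). For ETV5 the means were 355 ± 76.7 and 405 ± 23.1, a difference of −0.20 (interval −0.54 to 0.13). Without non-silencing replicate 3 these differences were −0.090 and −0.041, and without non-silencing replicate 1 that of ETV5 was −0.35. Non-silencing replicate 3 was the lowest of its group for all 10 genes, and without it 5 of the 10 lay below 0.

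In order of group means, SPRY1, SPRY2, SPRY4, SPRED1, DUSP6, ETV4 and ETV5 went from no siRNA down through the non-silencing siRNA to TCF7L1 siRNA. The untreated and non-silencing groups, neighbours in that order, overlapped for each of the 7. The non-silencing and knockdown groups overlapped for 5 of them, all but SPRY2 and SPRY4. ETV1 went from TCF7L1 siRNA down through no siRNA to the non-silencing siRNA, and the means of SPRED2 and DUSP4 lay within the spread of their groups. The part that the siRNA treatment itself has in the difference from untreated cells was not tested.

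The values of the 10 genes tended to be higher on arrays of wider spread, although no such relation passed after adjustment. The same relation was not measured over all tested probe sets, so it is not shown to be particular to these genes. Over the 9 arrays, Pearson's r between a gene's log2 value and the interquartile range of its array was above 0 for 10 of 10 genes, from 0.17 for ETV1, whose Spearman's rho was −0.10, to 0.78 for SPRED2, with a median of 0.60. For SPRED2, r = 0.78 and Spearman's rho = 0.73 had exact permutation p-values of 0.0132 and 0.0311. For ETV5, r = 0.78 and rho = 0.80 had exact permutation p-values of 0.0153 and 0.0138. For SPRED1, r = 0.78 and rho = 0.73 had exact permutation p-values of 0.0158 and 0.0311. After Benjamini-Hochberg adjustment over the 10 relations, Pearson's exact permutation p was 0.0527 for each of these 3, and 0 of 10 were under 0.05. The permutations shuffled all 9 arrays regardless of group, so group differences and array spread are mixed in these p-values. Without the 2 arrays farthest from the median spread, r was 0.69 for SPRED2, 0.61 for ETV5, 0.56 for SPRED1 and −0.35 for ETV1.

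SPRY4 had r = 0.62 and rho = 0.63 with array spread, with exact permutation p-values of 0.0802 and 0.0760, and r = 0.43 without the 2 farthest arrays. For SPRY2, r = 0.39 and rho = 0.35 had exact permutation p-values of 0.301 and 0.359, and r without those arrays was 0.18. Within the groups the same pattern was seen in part: the widest array of each group was the group's highest for 9 of the 10 genes in untreated replicate 2, for 8 in non-silencing replicate 1 and for 5 in knockdown replicate 1. The narrowest of each group was the lowest for 10 genes in non-silencing replicate 3, for 5 in knockdown replicate 2 and for 2 in untreated replicate 1, while untreated replicate 3, of middle spread, was the lowest for 8. With the spread of each array as a covariate, the difference between the siRNAs was −0.24 for SPRY4 (adjusted p = 0.371 in limma), −0.22 for SPRY2 (0.607) and −0.37 for ETV5 (0.187). Against no siRNA the covariate left SPRY4 at −0.34 (adjusted p = 0.201) and ETV5 at −0.41 (0.204).

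**Figure D3:**
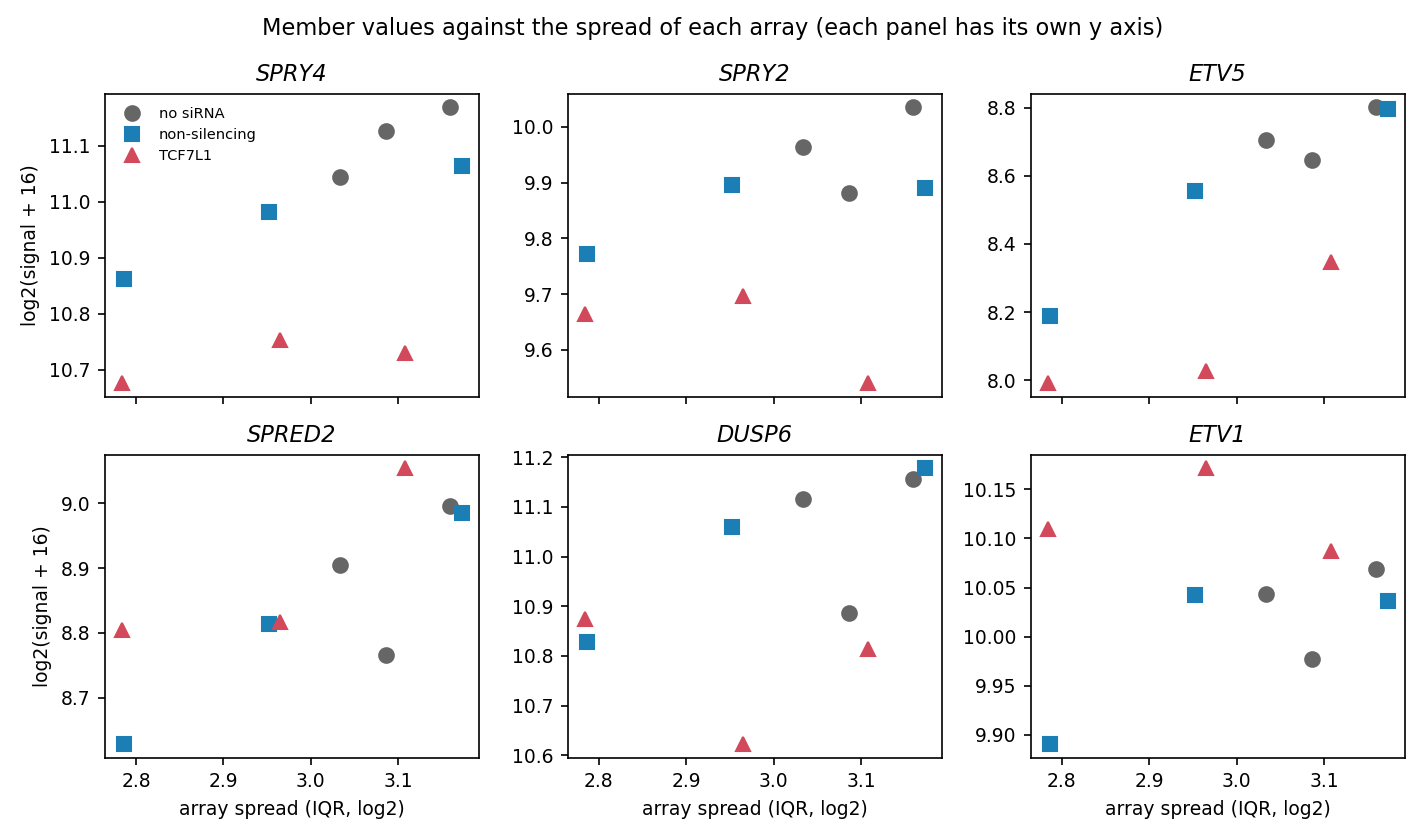
Values of 6 of the genes as log2(signal + 16) (y axis, separate per gene and not starting at 0) against the interquartile range of the log2 values of each array (x axis), with 1 point per array and shapes for the groups. SPRED2 and ETV5 (r = 0.78) are mostly higher on arrays of wider spread, while the knockdown arrays of SPRY4 and SPRY2 lie low and those of ETV1 high at every spread.

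Markers of other cell types were measured beside the 10 genes. Of 10 fibroblast markers 7 were bright enough to test and DCN, LUM and FAP were not, and the summed signal of the 10 was 2823 to 3187 with TCF7L1 siRNA, 3176 to 3560 with the non-silencing siRNA and 3415 to 3592 without siRNA. The knockdown arrays lay below all untreated arrays for this sum and overlapped the non-silencing ones narrowly. Between the siRNAs 4 of the 7 lay below 0, with a median log2 difference of −0.15, and COL3A1 (0.063), POSTN (0.061) and PDGFRB (0.0020) lay above. Against no siRNA 5 lay below 0, and COL3A1 (0.28) and PDGFRA (0.15) above. THY1, which embryonic stem cells also express, made up most of the sum, at 1946 ± 154 (SD, n = 3) in the knockdown. The collagen gene COL1A1, the lowest of the 7 between the siRNAs and named like THY1 after its values were seen, had a signal of 307 ± 21.6 (SD, n = 3) in the knockdown against 427 ± 19.9 (n = 3) under the non-silencing siRNA, a log2 difference of −0.46 with limma's adjusted p = 0.296. Summed trophoblast and amnion markers, 8 of 10 tested, were 1913 to 2221, 2053 to 2378 and 2153 to 2309 in the same order. Summed mesendoderm markers, 10 of 10 tested, were 1842 to 2311, 1658 to 2235 and 1766 to 1823, and summed neural ectoderm markers, 9 of 9 tested, were 2624 to 2740, 2462 to 2764 and 2555 to 2654. Against no siRNA all 10 mesendoderm markers lay above 0, with a median of 0.14, and their sums did not overlap. Between the siRNAs 7 of them lay above 0 and 3 below, and the sums overlapped. Of the trophoblast and amnion markers 6 lay above 0 and 2 below against no siRNA, the lowest at −1.10. For neural ectoderm these counts were 7 and 2. The part of these cells in the differences of the 10 genes was not tested.

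The rest of the pathway was read from lists of its ligands, receptors, cascade, other feedback genes and early response genes. Across these lists limma called 0 of 90 tested genes in any of the 3 comparisons. At an unadjusted p under 0.05 it gave 5 of the 90 between the siRNAs (2.58% of all probe sets), 7 for the knockdown against no siRNA (7.26%) and 2 between the controls (2.41%). Groups did not overlap for 9 of the 90 between the siRNAs (4.99% of all) and 4 between the controls (6.86%). For the knockdown against no siRNA it was 14 (14.4%). The lists' medians between the siRNAs lay between −0.045 and 0.019, against −0.15 for the 10 feedback genes. For the knockdown relative to no siRNA they lay between −0.10 and 0.11, where the 10 had −0.23. Between the controls they lay between −0.071 and 0.00026, where the 10 had −0.094. Both the 10 genes and the lists were chosen with earlier results of these data known. The list called FGF ligands held genes of the FGF family, FGF11, FGF12 and FGF13 among them. Of its 17 genes 15 were tested, and between the siRNAs 8 lay above 0 and 7 below, with a median of 0.0025. FGF19, an endocrine ligand, had a signal of 221 ± 26.9 (SD, n = 3) with TCF7L1 siRNA against 173 ± 12.7 (n = 3), a difference of 0.32 (SE 0.13) without overlap, and FGF20 had a difference of 0.17 (SE 0.086) without overlap. limma's adjusted p was 1 for both. In all, 3 genes of this list were higher without overlap (1.88% of all probe sets). Against no siRNA, 0 were higher without overlap (6.43% of all) and 1 was lower (7.93%).

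Of 11 receptors and co-receptors, 8 lay below 0 between the siRNAs, with a median of −0.045. The heparan sulphate proteoglycans SDC2 and SDC4, which help ligands to bind, had the smallest p-values, at differences of −0.18 (SE 0.11) and −0.18 (SE 0.12). SDC4 was lower without overlap (3.12% of all probe sets), and SDC2 overlapped. In the adaptors and the Ras to ERK cascade 16 of 24 genes lay below 0, with a median of −0.025. KSR1, the scaffold that holds Raf, MEK and ERK together, had a signal of 324 ± 9.28 (SD, n = 3) against 398 ± 26.4 (n = 3), a difference of −0.28 (SE 0.086) without overlap, and against no siRNA it was −0.24. Its unadjusted p between the siRNAs was 0.00744 and its adjusted p 1 in limma. MAPK3, which encodes ERK1, had a difference of −0.16 (SE 0.093).

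The other feedback genes, 16 of 16 tested, were split, with 9 above 0 and 7 below and a median of 0.012. FLRT2, a membrane protein that binds FGF receptors, had 124 ± 15.3 (SD, n = 3) against 98.5 ± 9.45 (n = 3), a difference of 0.29 (SE 0.11). ERRFI1, an inhibitor of the EGF receptor, had 1362 ± 51.1 against 1562 ± 46.4, a difference of −0.20 (SE 0.086), and both were without overlap. In all, 2 genes of this list were higher without overlap (1.88% of all probe sets) and 1 was lower (3.12%). Of 24 immediate early and growth-response genes 15 lay above 0, with a median of 0.019. ETS1, another ETS factor, had 413 ± 36.3 against 321 ± 19.4, a difference of 0.35 (SE 0.096) without overlap and an adjusted p of 0.959 in limma. Against no siRNA, where its signal was 394 ± 14.9, the difference was only 0.061. Between the controls ETS1 was lower without overlap under the non-silencing siRNA (4.39% of all probe sets), at −0.29. Between the siRNAs ETS2 had a difference of 0.20 (SE 0.10), with overlap.

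**Figure D4:**
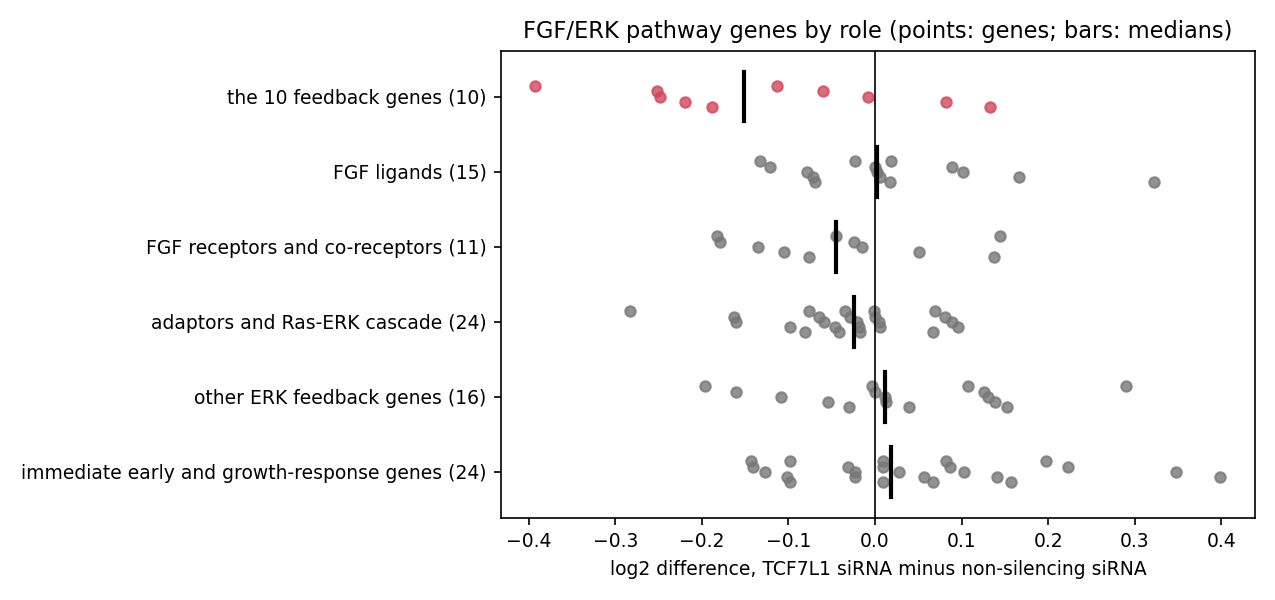
Log2 differences between TCF7L1 siRNA and non-silencing siRNA (x axis) for the 10 feedback genes and 5 lists of the FGF/ERK pathway (y axis, tested genes in brackets), with points for genes and vertical bars for medians. The 10 feedback genes have a median of −0.15, and the medians of the other lists lie between −0.045 and 0.019.

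**Figure D5:**
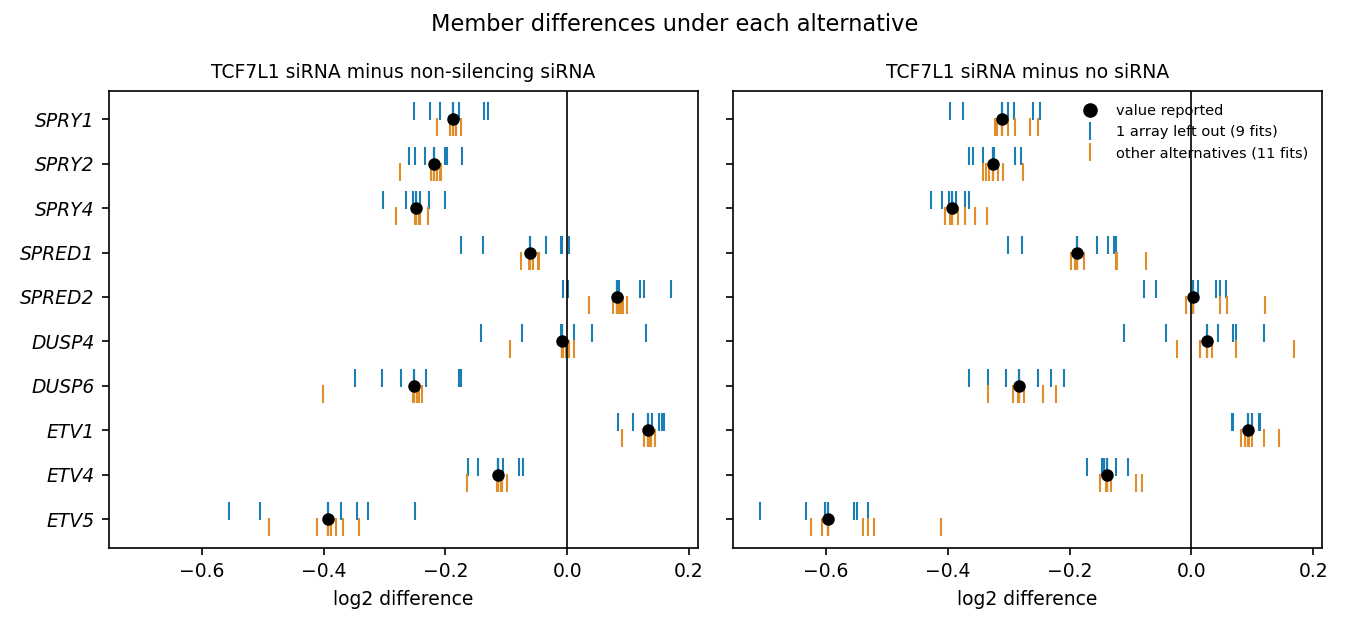
Log2 differences (x axis) of the 10 genes (y axis) in both comparisons of the knockdown, with black points for the value reported, blue ticks for the 9 fits without 1 array and orange ticks for the 11 other alternatives. SPRY1, SPRY2, SPRY4, DUSP6, ETV4 and ETV5 stayed below 0 and ETV1 above 0 in every one of these fits. SPRED2 and DUSP4 crossed 0 in both comparisons and SPRED1 in 1 fit of the first. Fits that change only the filter, block, variance prior or groups fitted, or leave out an array of the group not compared, repeat the value reported.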

How the data were processed

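Transcript levels were measured on 9 Affymetrix whole-transcript arrays, 3 for each of 3 groups taken from the sample titles. The authors deposited intensity signals on a linear scale, from PLIER 2.0 in Affymetrix Expression Console 1.1.1, per the submitters' processing notes. Background and normalization steps were not given in the sources used here, and these values were taken as they stood. The deposited tables held equal values, with a largest difference of 0, and 4201 control probe sets were left out.

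Signals were turned into log2 after adding 16. Tests were kept to probe sets that on 3 or more arrays exceeded the array's 25th percentile, 22784 of 29096, among them all 10 feedback genes. These 10 exceeded it on every array. 1 mean per group was fitted over the 9 arrays with limma 3.58.1 in R 4.3.3, with 6 residual degrees of freedom and a prior of 4.89. Tests were two-sided, and p-values were adjusted by Benjamini-Hochberg over all 22784 probe sets of a comparison, with a threshold of 0.05. The number of arrays limits the precision: the median half-width of a 95% interval was 0.26 on the log2 scale. The script was tested on simulated data.

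Lists used 1 probe set per gene, that of highest mean signal. All 10 genes are named, with TCF7L1, the 2 genes of smallest p between the siRNAs in each pathway list and any list gene past the threshold. The rule also named the probe sets most like the mean of the 10 genes, which are not reported here. The members and lists were chosen with earlier results of these data known. Positions of probe sets are on build 37, since 97.4% of 5957 probe sets whose text names that build overlapped it. Alternatives were the added offset, the filter, the normalization, the replicate number as a block, array spread, the variance prior, the samples fitted and each array left out in turn.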

Additional observations from a re-analysis of the deposited data

How the results depend on the processing

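Under 20 alternatives, 9 of which left out 1 array, 0 of 597 values of the 10 genes passed the threshold in limma. In direction, 567 stayed and 30 turned. The turned value farthest from 0 was 0.13, for DUSP4 between the siRNAs without non-silencing replicate 1. Many of the 567 could not turn. Changing the filter, the block or the variance prior, or fitting only the 2 groups compared, leaves the difference itself unchanged. So does leaving out an array of the group not compared, and such fits can change only the p-value. SPRY1, SPRY2, SPRY4, DUSP6, ETV4 and ETV5 kept their direction in both comparisons of the knockdown, as did ETV1. The deviations of samples with the same replicate number had r from −0.26 to 0.68, with 5 of 9 pairs above 0.1, and those with different numbers r from −0.75 to 0.71, with 4 of 18 above 0.1. Since not every same-numbered pair exceeded 0.1, the number was not taken as a pairing. With it as a replicate block the probe sets called numbered 11 between the siRNAs and 20 for the knockdown against no siRNA, in place of 6 and 12, and no gene of the 10 passed. Array spread as a covariate gave 25 and 20, and omitting the 2 arrays of narrowest spread gave 5 in the second. Leaving out 1 array gave 4 to 6 and 3 to 15.

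Between the siRNAs, 2 of the 10 were lower without overlap (3.12% of all probe sets). The count was 6 without the 2 narrowest arrays (11.8% of all) and 2 to 6 without 1 array (9.84% of all where it was 6). For the knockdown against no siRNA, 6 were lower without overlap (7.93% of all) and 3 after quantile normalization (7.26%). Higher without overlap were 1 (6.43% of all) and, after median centring, 0 (6.64%). Between the controls, 9 of the 10 lay below 0, 5 without the 2 narrowest arrays and 5 to 10 without 1 array. In that comparison 0 were lower without overlap (4.39% of all), and 0 to 3 without 1 array (12.5% of all where it was 3).

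Between the siRNAs, DUSP4 turned to 0.0037 after quantile normalization and 0.011 with the covariate. It was 0.13 without non-silencing replicate 1, 0.040 without TCF7L1 siRNA replicate 2 and 0.011 without replicate 3. Without 1 array it ranged from −0.14 to 0.13, SPRED1 from −0.17 to 0.0022 and SPRED2 from −0.0077 to 0.17. Against no siRNA, SPRED2 turned to −0.0083 after median centring and DUSP4 to −0.024 after quantile normalization, with ranges of −0.078 to 0.056 and −0.11 to 0.12 without 1 array. Between the controls, the covariate turned SPRED2 to 0.024, DUSP6 to 0.021 and ETV4 to 0.017. Without the 2 narrowest arrays SPRED2 was 0.010, DUSP6 0.066, ETV1 0.0099 and ETV4 0.025, and quantile normalization gave DUSP4 −0.028 and ETV4 0.018. Without 1 array SPRED2 ranged from −0.17 to 0.010, DUSP4 from −0.10 to 0.17, DUSP6 from −0.11 to 0.066, ETV1 from −0.066 to 0.0099, ETV4 from −0.066 to 0.025, SPRY1 from −0.21 to −0.060, SPRED1 from −0.22 to −0.049, SPRY2 from −0.15 to −0.067 and TCF7L1 from −0.062 to 0.098. The causes were not tested.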
